A study of Mus musculus with 10 samples.

Results

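The CG positions described here carried the highest coverage of 5-carboxylcytosine (5caC) in mouse embryonic stem cells labelled Tdg. They were chosen from the deposited coverage table as the autosomal positions with a coverage of 100 or more in Tdg cells grown in serum, in serum-2i, or in both. This rule gave 4229 of the 914758 listed autosomal positions, and of the 922427 positions when X is counted. The coverage in Tdg cells chose the positions, so those values are a description and carry no test.

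The table covers 4 groups with 2 technical replicates each: cells labelled wt and cells labelled Tdg, both cultured with serum and with serum-2i. The labels give the gene name Tdg without the kind of alteration. All cells grew without feeders on gelatin in medium with 15% serum and LIF at 1000 units/ml, and serum-2i added 3 µM of the GSK3 inhibitor CHIR99021 with 1 µM of the MEK inhibitor PD0325901. The study also had a negative control, DNA of a triple Tet knockout grown in serum, which is not analysed here. The assay read DNA only, so neither the labelled cell type nor the alteration of Tdg could be checked against expressed markers. The table gave 1 coverage value per position and group, read as the mean of 2 replicates.

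5caC is the last product of the stepwise oxidation of 5-methylcytosine by the TET dioxygenases. Thymine DNA glycosylase, encoded by Tdg, excises 5caC, and base excision repair then puts back an unmodified cytosine. In cells that lack this enzyme 5caC persists, so the mark is known as a record of active DNA demethylation in embryonic stem cells. The assay blocked 5-hydroxymethylcytosine and unmodified CGs, swapped the carboxyl group for a tag with an engineered CG methyltransferase, and read the sequence next to the tag. Coverage therefore counts reads that start from a tagged CG, not the fraction of DNA copies that carry 5caC.

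The table listed 371703 autosomal positions for Tdg cells in serum and 683575 for those in serum-2i. The median coverage was 14.5 and 13.5, and the summed coverage 7486660 and 12348368, X included. The wt groups were shallower, with 8645 autosomal positions in serum (median 4.5) and 110315 in serum-2i (median 7.5). The lowest listed coverage was 6 in both Tdg groups, 3 in serum wt and 4 in serum-2i wt. A position that a group does not list has an unknown value there, not a value of 0.

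The following stretches show what high-coverage CGs looked like next to RefSeq transcription starts (GRCm38.p6, the assembly of mm10). Each is the 250 bases before a start, written 5′ to 3′ on the strand of the gene, with the CGs that reached a coverage of 100 in capitals. Sytl1, an effector of Rab27 in vesicle traffic, is shown because it held a position with the highest coverage of the serum group (chr4:133263088-133263337, minus strand). Asprv1, a skin aspartic protease (chr6:86627924-86628173, plus strand), and Krt8, a keratin of simple epithelia (chr15:102004343-102004592, minus strand), are shown for a single strong CG. Sbno2 (chr10:80101188-80101437, minus strand) and Sycp3, part of the synaptonemal complex of meiosis (chr10:88459337-88459586, plus strand), held 2 such CGs each in these stretches. Klk11, a secreted serine protease (chr7:43774367-43774616, plus strand), and Smim14, a small membrane protein (chr5:65479878-65480127, minus strand), are shown for a CG strong in serum-2i alone.
Sytl1: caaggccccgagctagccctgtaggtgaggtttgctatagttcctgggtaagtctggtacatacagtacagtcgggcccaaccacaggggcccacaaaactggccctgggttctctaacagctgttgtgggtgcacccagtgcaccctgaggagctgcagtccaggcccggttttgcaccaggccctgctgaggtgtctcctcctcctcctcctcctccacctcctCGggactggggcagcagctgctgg
Asprv1: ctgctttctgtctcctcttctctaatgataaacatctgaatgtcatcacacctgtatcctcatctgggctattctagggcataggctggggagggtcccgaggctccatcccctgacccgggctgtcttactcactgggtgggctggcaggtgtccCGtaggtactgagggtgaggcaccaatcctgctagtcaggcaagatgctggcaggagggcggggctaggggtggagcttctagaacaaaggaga
Krt8: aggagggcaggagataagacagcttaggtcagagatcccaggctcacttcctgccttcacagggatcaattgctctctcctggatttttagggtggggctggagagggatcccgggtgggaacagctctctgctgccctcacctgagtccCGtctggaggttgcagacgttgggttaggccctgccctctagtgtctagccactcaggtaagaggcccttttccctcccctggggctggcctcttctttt
Sbno2: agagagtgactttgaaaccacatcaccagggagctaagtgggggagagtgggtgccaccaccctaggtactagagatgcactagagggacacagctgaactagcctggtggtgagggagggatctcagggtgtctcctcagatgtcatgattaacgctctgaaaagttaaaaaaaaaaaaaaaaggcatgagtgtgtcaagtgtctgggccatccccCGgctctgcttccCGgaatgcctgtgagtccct
Sycp3: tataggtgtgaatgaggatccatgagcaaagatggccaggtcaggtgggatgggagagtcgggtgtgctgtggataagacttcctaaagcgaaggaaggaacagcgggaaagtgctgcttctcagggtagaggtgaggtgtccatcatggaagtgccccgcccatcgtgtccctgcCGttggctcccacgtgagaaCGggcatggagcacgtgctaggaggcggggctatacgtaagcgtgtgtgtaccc
Klk11: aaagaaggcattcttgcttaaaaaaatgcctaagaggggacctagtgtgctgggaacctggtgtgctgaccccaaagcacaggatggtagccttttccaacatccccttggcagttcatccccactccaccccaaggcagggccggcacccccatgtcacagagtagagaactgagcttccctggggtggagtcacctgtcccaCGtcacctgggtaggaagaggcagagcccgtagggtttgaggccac
Smim14: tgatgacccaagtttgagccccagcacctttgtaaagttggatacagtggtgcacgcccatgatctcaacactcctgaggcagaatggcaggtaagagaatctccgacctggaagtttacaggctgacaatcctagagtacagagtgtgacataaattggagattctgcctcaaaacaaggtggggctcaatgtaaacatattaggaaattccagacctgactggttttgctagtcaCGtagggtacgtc

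The Sytl1 CG had a coverage of 297.5 in serum Tdg and 168.5 in serum-2i Tdg cells, and was the single CG of the 4 in its stretch that either Tdg group listed. The Asprv1 CG had 248.5 and 55 in these groups, while the other listed CG of that stretch had 23.5 and 11.5. The Krt8 CG had 154 in serum Tdg, 37.5 in serum-2i Tdg and 9 in serum wt cells. In Sbno2 the CGs stood at 183.5 and 136.5 in serum and at 71.5 and 70.5 in serum-2i, with a further CG of the stretch at 14.5 in serum alone. In Sycp3, which held 12 CGs in its stretch, the 2 strong CGs had 112.5 and 103 in serum and 73 and 38 in serum-2i. The CG between them had 64 and 35, with 5 in serum wt. The Klk11 CG had 108 in serum-2i Tdg, 14 in serum Tdg and 4 in serum-2i wt cells. The Smim14 CG had 111 in serum-2i Tdg and 7 in serum-2i wt cells and was not listed in serum. In each of these stretches high coverage lay on 1 or 2 CGs among several. In the medium where those were strong, the other CGs of the stretch were lower or not listed. This follows in part from the choice, since the stretches were picked after their values were seen. It also holds for the printed stretches only, which end at the start. In Sbno2 high coverage went on past the start, with CGs at 200, 173.5 and 122.5 in serum.

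Of the 4229 positions, 2620 reached 100 in serum Tdg cells, which is 0.705% of the autosomal positions listed there. In serum-2i Tdg cells 1872 did, or 0.274% of those listed. The number reaching 100 in both was 263, which is 0.134% of the positions listed in both groups. That leaves 2357 positions of serum alone and 1609 of serum-2i alone. No autosomal position reached 100 in serum wt cells, and 1 did in serum-2i wt cells, or 0.000906% of those listed. Which medium held more positions turned with the minimum: at a coverage of 50 or more there were 20960 in serum and 24957 in serum-2i. With the serum-2i minimum raised to 164.8, the same share of the group's summed coverage as 100 in serum, 98 were left in serum-2i. No value per replicate was given, so the spread between replicates is unknown for every count and coverage here.

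The minimum of 100 was 6.90 times the median coverage of the serum Tdg group. Coverage had no gap there. In serum, 51 positions stood at 100 and 65 at 99.5, and in serum-2i 46 stood at 100 and 35 at 99.5. Positions just inside in serum included ones in Rcsd1 and Gas2l1, one 6533 bp from Uck2, one 16338 bp from Ctdsp2 and one 22691 bp from Lif, the gene of the cytokine in the medium. The Lif position had 100 in serum Tdg, 49.5 in serum-2i Tdg and 3.5 in serum wt cells. Just outside, at 99.5 in serum, lay positions in Tram2, Inava, Rab36 and Sbno2 and one 5553 bp from Pipox. In serum-2i the positions at 100 included ones in Ankrd44 and Pcnt and ones 34979 bp from Optc, 75395 bp from Zfp281 and 78541 bp from Cnksr3. Those at 99.5 included ones in Tmem131, Kif28, Cpm and Sfi1 and one 22382 bp from Atp23. Serum positions that reached the minimum had a median coverage of 118, with quartiles of 107.5 and 136.5, so most lay close to it. The serum-2i positions had a median of 114.5.

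The highest coverage in serum Tdg cells was 297.5, at the Sytl1 CG shown above and at chr5:115450227 in Msi1, an RNA-binding protein of neural progenitors. From the reads summed over 2 replicates, the exact Poisson 95% interval of that value ran from 274.1 to 322.4 and covers counting error only. The Msi1 position had 111 in serum-2i Tdg and 8.5 in serum wt cells. A position in Gse1, which encodes a subunit of a histone deacetylase complex, had 273 in serum and 199 in serum-2i (chr8:120575183). The position in Fmnl1, an actin-nucleating formin, had 268 and 55.5 (chr11:103175137), and that in Ccdc13 had 263 and 135 (chr9:121797991). In Cryba2, a lens crystallin, the values were 255 and 128 (chr1:74898207). Adam11, a membrane protein of the brain, held a position with 253 in serum, 36 in serum-2i and 5.5 in serum wt cells (chr11:102777747). Of the 10 highest serum positions, the one in the zinc-finger gene Zfp710 (chr7:80031088, coverage 249) was the only one that serum-2i Tdg cells did not list. The remaining members of the 10 lay outside coding genes: chr11:116893878, 18218 bp from the nearest, had 261 and 105, and chr6:99739718, 13326 bp away, had 250 and 137.5.

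In serum-2i Tdg cells the highest coverage of the table, 452, was at chr11:3193428 in Sfi1, a centrin-binding protein of the centrosome, with a counting interval of 423.0 to 482.5. Serum Tdg cells had 233.5 there. The next was chr6:7831047, 14177 bp before C1galt1, with 294.5 in serum-2i and 167 in serum. Tex2 held a position with 269.5 and 126.5 (chr11:106568511). Besides the one before C1galt1, 5 of the 10 highest serum-2i positions lay outside coding genes. At chr16:29695582, 32455 bp from the nearest coding gene, the coverage was 256.5 in serum-2i Tdg, 104.5 in serum Tdg and 27 in serum-2i wt cells. At chr12:77791107, which was 315109 bp from the nearest coding gene, it was 255.5 in serum-2i and 47 in serum. The positions chr1:35831950 (230 and 108.5), chr15:100425735 (221.5 and 115) and chr6:120613017 (221.5 and 154.5) also lay between coding genes. Fam3c, which encodes a secreted cytokine-like protein, held the one position of the 10 that was higher in serum, at 217.5 in serum-2i and 241.5 in serum Tdg cells (chr6:22350116). Of these 10, all but the position on chr12 also reached 100 in serum, whereas 7 of the 10 highest serum positions reached 100 in serum-2i.

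**Figure D1:**
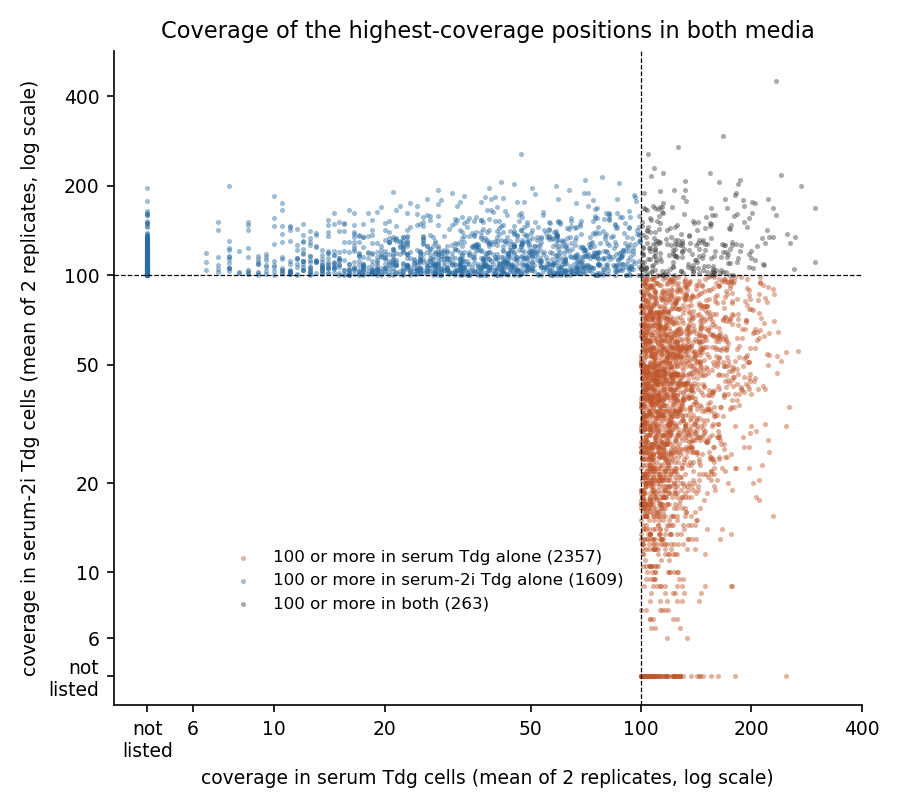
Coverage of the 4229 positions in serum Tdg cells (horizontal) and serum-2i Tdg cells (vertical), both as the mean of 2 replicates on log axes, with positions that a group does not list drawn at the edge and dashed lines at 100. The 2357 positions of serum alone and the 1609 of serum-2i alone spread over the whole range of the other medium, and 263 lie above 100 in both.

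Positions with high coverage in one medium were mostly listed in the other, at lower coverage. Of the 2620 serum positions, 96.8% were listed in serum-2i Tdg cells (exact Clopper-Pearson 95% interval 96.0 to 97.4%), against 52.6% of the serum positions below 100. Their median coverage there was 44.5: 823 had 50 to under 100, 1098 had 20 to under 50, 351 had under 20 and 85 were not listed. Of the 1872 serum-2i positions, 87.3% were listed in serum Tdg cells (85.8 to 88.8%), against 28.6% of those below 100. Their median in serum was 42.5, with 425 at 50 to under 100, 639 at 20 to under 50, 308 under 20 and 237 not listed. All these intervals cover counting error alone, take positions as independent although neighbours can share a read, and rest on PCR reads without molecular identifiers.

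The share listed in the other medium rose step by step with coverage. In serum it was 36.1% at a coverage of 6 to under 10, 62.2% at 20 to under 30 and 92.9% at 75 to under 100. It was 96.3% at 100 to under 150 and 99.1% from 150 upward. In serum-2i it was 14.9% at 6 to under 10, 78.4% at 75 to under 100 and 94.9% from 150 upward. The positions above 100 therefore continued a trend across the whole range.

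Some positions were far apart between the media. The 85 serum positions missing from serum-2i included the one in Zfp710 and one in Srcin1, a SRC kinase regulator, at 162. At 38865 bp from Id3, an inhibitor of helix-loop-helix factors, the serum value was 181, and at 1380 bp from Sfrp1, a secreted WNT antagonist, it was 155. Others were listed in serum-2i at its floor: a position in Llgl2 had 118 in serum and 6 in serum-2i, one at Cdca4 had 133.5 and 6, and one at Hic1 had 127.5 and 6.5.

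Among the 237 serum-2i positions missing from serum, one in Plcb4, a phospholipase C, had 196, with 12.5 in serum-2i wt cells. One in Srbd1 had 178 and 10.5, one in Trappc12 had 162 and 8, and one in Stx8, a SNARE protein of endosomes, had 160.5 and 18. A position 198454 bp from Bcl6, a transcriptional repressor, had 165. Listed in serum at low coverage were positions in Plcg2 (150.5 in serum-2i, 7 in serum) and Otog (102.5 and 7). Each of the first 4 serum-2i positions named was listed in serum-2i wt cells, while the one far from Bcl6 was listed in neither wt group. Of the 237 positions, 143 were listed in neither wt group. Serum-2i wt cells alone listed 93, and both wt groups listed 1.

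At the 263 positions above 100 in both media, coverage was alike in size, with medians of 132 in serum and 126 in serum-2i. Serum was higher at 148 of them. By runs of positions no more than 1 kb apart, the most summed coverage lay in a run in Sfi1 (chr11:3193144-3193439) and one in Gse1 (chr8:120574420-120575202). Fam3c (chr6:22350072-22350116), Cryba2 (chr1:74898128-74898287) and Sytl1 (chr4:133263110-133264006) followed. In Gse1 this run held the values 132 and 193, 273 and 199, and 163.5 and 97.5 in serum and serum-2i.

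Wild-type cells listed the high-coverage positions more often than other positions of the same medium. In serum, 191 of the 2620 positions were listed in wt cells, or 7.29% (6.32 to 8.35%), against 1.23% of serum Tdg positions below 100. In serum-2i, 698 of 1872 were, or 37.3% (35.1 to 39.5%), against 7.85%. In steps of rising coverage the share went from 0.666% to 13.1% in serum and from 5.19% to 44.1% in serum-2i. From a wt coverage of 6 upward, the minimum of the Tdg groups, 68 positions were left in serum (2.60%) and 646 in serum-2i (34.5%).

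Where both genotypes listed a position, Tdg cells had the higher coverage by a wide margin. The ratio of Tdg to wt coverage had a median of 24.8 at the 191 serum positions (range 2.10 to 74.0), with a median wt coverage of 5. In serum-2i it had a median of 10.9 at the 698 positions (1.92 to 39.7), with a median wt coverage of 11. These ratios were bounded by the choice of Tdg coverages above 100 and by the wt listing minimum. The wt groups had a far smaller summed coverage, and the part of depth in these ratios was not tested. Seen from wt cells, 0.633% of the positions listed in serum-2i wt reached 100 in serum-2i Tdg cells. This share was 0.183% at a wt coverage below 6 and 17.97% from 30 upward, where 23 of 128 positions did.

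The wt listing was also read in the other medium. Of the 1609 positions of serum-2i alone, serum-2i wt cells listed 608 (37.8%, 35.4 to 40.2%), and serum wt cells 54 (3.36%, 2.53 to 4.36%). Of the 2357 of serum alone, serum-2i wt cells listed 234 (9.93%, 8.75 to 11.2%), and serum wt cells 163 (6.92%, 5.92 to 8.02%). Below 100, serum-2i wt cells listed 7.85% of the serum-2i Tdg and 5.22% of the serum Tdg positions, and serum wt cells 0.572% and 1.23%. Thus all 4 shares were above the share below 100, in the other medium too. Serum-2i wt cells listed more than serum wt cells at positions of either medium, as they also did below 100. They listed 110315 autosomal positions in all against 8645 in serum wt, and the part of list size in this order was not tested. Of the 263 positions of both media, serum-2i wt cells listed 90 (34.2%), and serum wt cells 28. Few high-coverage positions were listed in a single group, namely 81 of the serum positions (3.09%) and 143 of the serum-2i positions (7.64%). Below 100 these shares were 46.2% and 65.8%.

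**Figure D2:**
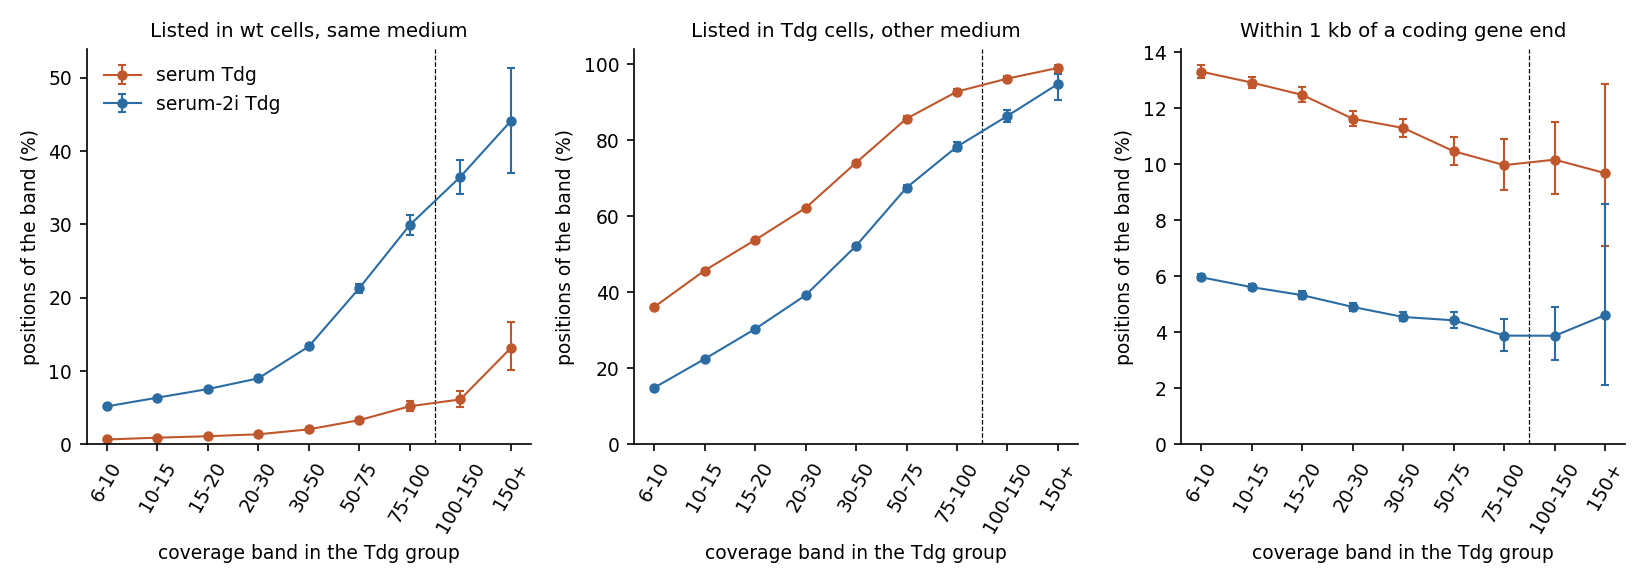
Share of autosomal positions in each band of Tdg coverage that wt cells of the same medium listed (left), that Tdg cells of the other medium listed (middle) and that lay within 1 kb of an end of a protein-coding gene (right), with exact binomial 95% intervals for counting error and a dashed line at a coverage of 100. The first 2 shares rise across all bands in both media, to 44.1% and 94.9% in serum-2i, while the share near gene ends falls from 13.3% to 9.68% in serum.

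All 4 groups listed 66 of the positions. The highest serum wt coverage among them was 20.5, at chr11:3145266 in Sfi1, where serum-2i wt had 21, serum Tdg 112.5 and serum-2i Tdg 129.5. At chr17:3081542, in the pseudogene Pisd-ps2, serum wt had 14.5 and serum-2i wt 17.5, while serum Tdg had 17 and serum-2i Tdg 108. There the serum Tdg value was close to that of wt cells. A position 1358 bp from Tpgs1 had 179.5 in serum Tdg, 95.5 in serum-2i Tdg, 10 in serum wt and 21.5 in serum-2i wt cells. The first CG of the Sbno2 run had 200, 40, 8 and 7.5 in the same order. Positions in Efcab6 (141, 93, 10.5 and 7) and Pold1, the catalytic subunit of DNA polymerase delta (149, 62, 9.5 and 14), had the same order of genotypes. With the exception of Pisd-ps2, each Tdg value named here was at least several times the wt value of its medium.

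The high-coverage positions lay slightly more often inside coding genes, and less often at gene ends, than positions of lower coverage. In serum, 1712 of 2620 lay inside a coding span (65.3%, 63.5 to 67.2%), against 59.3% of positions below 100. In serum-2i, 1127 of 1872 did (60.2%, 57.9 to 62.4%), against 56.6%. Within 1 kb of either end of a coding gene lay 264 in serum (10.1%, 8.95 to 11.3%, against 12.4% below 100) and 74 in serum-2i (3.95%, 3.12 to 4.94%, against 5.41%). At a minimum of 200, with 82 and 20 positions, the order turned for gene ends in serum (13.4% against 12.4%) and for coding spans in serum-2i (55.0% against 56.6%). More than 10 kb from any coding gene lay 15.8% of the serum and 28.0% of the serum-2i positions, against 21.5% and 29.9% below 100.

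Measured from RefSeq starts, which were known for 81.7% of the coding genes on 18 autosomes, 9.23% of the serum positions and 3.24% of the serum-2i positions lay within 1 kb. Below 100 these shares were 10.9% and 4.37%. Within 250 bp of a start the shares were alike, at 4.40% against 4.19% in serum and 1.54% against 1.54% in serum-2i. Between 250 and 1000 bp they were lower above 100, at 4.83% against 6.68% in serum and 1.70% against 2.83% in serum-2i. From 1 to 5 kb, 21.4% of the serum positions stood against 19.5% below 100, while in serum-2i 12.58% stood against 13.57%. The median distance to a start was 9.45 kb in serum (11.5 kb below 100) and 19.01 kb in serum-2i (19.4 kb).

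**Figure D3:**
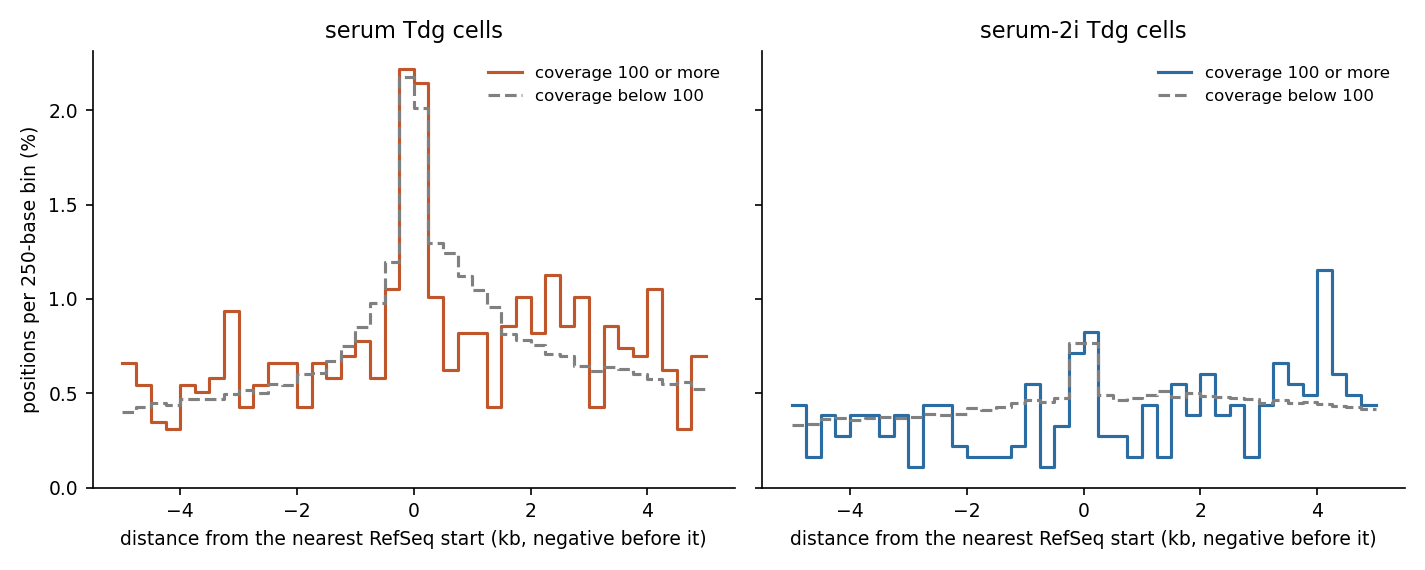
Share of positions per bin of 250 bases by distance from the nearest RefSeq start, negative before it, for positions with a coverage of 100 or more (solid) and below 100 (dashed) in serum Tdg (left) and serum-2i Tdg cells (right). Both serum lines peak at the start at about the same height, 2.22% and 2.18%. The solid serum line lies below the dashed one from 250 to 1000 bp on either side of the start.

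Within the 31365 RefSeq windows that run from 250 bases before to 50 after an autosomal start, 92 held a high-coverage position, 79 of serum and 19 of serum-2i. The median window held 7 CGs, and windows with a serum position held 8 and those with a serum-2i position 5. The 6918 windows with a CG listed in Tdg cells but no high-coverage position held a median of 9. In their surroundings, the high-coverage CGs were close to other listed CGs: they had a median of 2 other CGs within 50 bases, with quartiles of 1 and 4, and listed CGs below 100 had 3, with quartiles of 1 and 5. CGs not listed in Tdg cells had 8. The GC content of these surroundings was 60.8%, 58.8% and 67.7%. These medians rest on 60, 9073 and 222368 CGs with 50 bases on each side in the window.

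The bases beside the CG were counted too, and some of the possible flanks are given here. Counting both strands, 30.2% of the 96 high-coverage CGs in these windows stood in CCGG, as both capital CGs of the Sbno2 stretch do, against 19.7% of listed CGs below 100 and 10.8% of unlisted CGs. ACGG, or CCGT on the other strand, held 24.0%, 17.7% and 7.55%. CCGC, or GCGG, held 8.33%, 13.9% and 29.3%, and GCGC held 0%, 2.23% and 13.5%. Of all windows of this length, 53.5% held CCGG, 55.2% ACGG, 63.7% CCGC and 47.5% GCGC on either strand. A match describes these letters only.

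High-coverage positions had more listed CGs around them than other positions. Within 100 bp there were a median of 3 other listed positions in serum and 2 in serum-2i, against 1 below 100 in either medium. Only 10.04% of the serum positions and 19.6% of the serum-2i positions had none, against 38.6% and 46.1%. The highest neighbour within 100 bp had a median coverage of 57 in serum and 41 in serum-2i. It stayed under 50% of the position's own coverage for 1286 of 2357 serum positions (54.6%) and 1064 of 1506 serum-2i positions (70.7%). At a coverage of 50 to under 100 these shares were 38.5% and 50.4%. The choice of positions by their own coverage favours lower neighbours, so the shares carry no further reading.

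Joined at gaps of up to 1 kb, the serum positions formed 2254 runs, of which 1954 were a single position and 48 held 3 or more. The serum-2i positions formed 1783 runs, 1701 of them single and 6 with 3 or more. The longest run by count lay in Cda, which encodes cytidine deaminase. There 6 positions between 138361625 and 138361766 of chr4 had 110.5 to 188 in serum and 29 to 61.5 in serum-2i. The Sbno2 run (chr10:80101136-80101219) spanned the start, with 5 positions at 122.5 to 200 in serum and 40 to 71.5 in serum-2i. Runs of 5 also lay near Nkx2-1, a lung and forebrain homeobox gene (chr12:56529436-56529585, 112.5 to 165.5 in serum), and near Lbx1, a homeobox gene of muscle precursors (chr19:45229966-45230337, 105 to 139.5). In serum-2i the run with most positions was in Rab37, a small GTPase of secretion (chr11:115099733-115099816). Its 4 positions had 101.5 to 202.5 in serum-2i Tdg, 18.5 to 48 in serum Tdg and 5 to 30.5 in serum-2i wt cells, and all 3 groups listed every one.

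Of 20665 autosomal coding genes, 1186 held a serum position in their span (5.74%) and 941 a serum-2i position (4.55%). At least 1 position of each medium was held by 289 genes, serum positions alone by 897 and serum-2i positions alone by 652. The shares followed gene length differently in the 2 media. Of genes under 10 kb, 2.14% held a serum and 0.504% a serum-2i position. Of genes over 100 kb, 9.17% held a serum and 15.0% a serum-2i position. Counts per gene are therefore not free of length, and a position in overlapping spans counts for each gene.

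Macrod1, a hydrolase that removes ADP-ribose from proteins, held the most serum positions, 12 in a span of 141.3 kb. Their coverage was 101 to 193 in serum; in serum-2i 11 were listed at 14 to 53, and none reached 100. Gse1 held 10 serum and 5 serum-2i positions in 352.9 kb, 2 of them shared. Nfix, a nuclear factor I transcription factor, held 8 of serum and none of serum-2i, at 102 to 190.5 in serum and up to 48.5 in serum-2i. Msi1, Tcf20, Pax7 and Piezo1 each held 7 of serum and 1 of serum-2i. Pax7 specifies muscle progenitors and Piezo1 is a mechanically gated channel. Bop1, a ribosome assembly factor, held 7 of serum at 111 to 171.5, against 11.5 to 57.5 in serum-2i. Cda, Sbno2, Cbx7, Bcl9l and Gata2 held 6 each in serum and none in serum-2i. Their listed serum-2i positions were few, at 38, 59, 96, 61 and 34. Macrod1, Nfix and Bop1 had 236, 122 and 32. Over all autosomal positions, 0.705% reached 100 in serum and 0.274% in serum-2i. At that serum-2i share such numbers hold hardly any, so a count of none carries no further reading. The long non-coding RNA gene Mir9-3hg held 7 serum positions of 107 to 228.5, with 10.5 to 64.5 in serum-2i.

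The genes richest in serum-2i positions were fewer and held fewer each. Apart from Sfi1 with 14 and Gse1 with 5, Rab37 and Snd1 held 5 each. Snd1, a nuclease-domain coactivator, also held 5 serum positions in its 454.8 kb, and none was shared: its serum positions had 17 to 89.5 in serum-2i, and its serum-2i positions up to 62 in serum, with 1 not listed. The serum positions chr6:28828859, chr6:28831494 and chr6:28831543 also lay in Lrrc4, whose span overlaps that of Snd1. Slc25a13, a mitochondrial aspartate and glutamate carrier, and Agap1, an Arf GTPase-activating protein, held 4 each. Among those with 3 each were Celsr1, Vps35l, Hmcn2, Stx8, Sipa1l3, Ankrd6, Vav2 and Arl15. In Celsr1, a cadherin of planar cell polarity, one position had 199 in serum-2i and 7.5 in serum, and another had 134 in serum-2i and 223 in serum. Each of these genes spanned more than 70 kb, whereas the serum list also held shorter ones such as Gata2 with 13.14 kb.

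**Figure D4:**
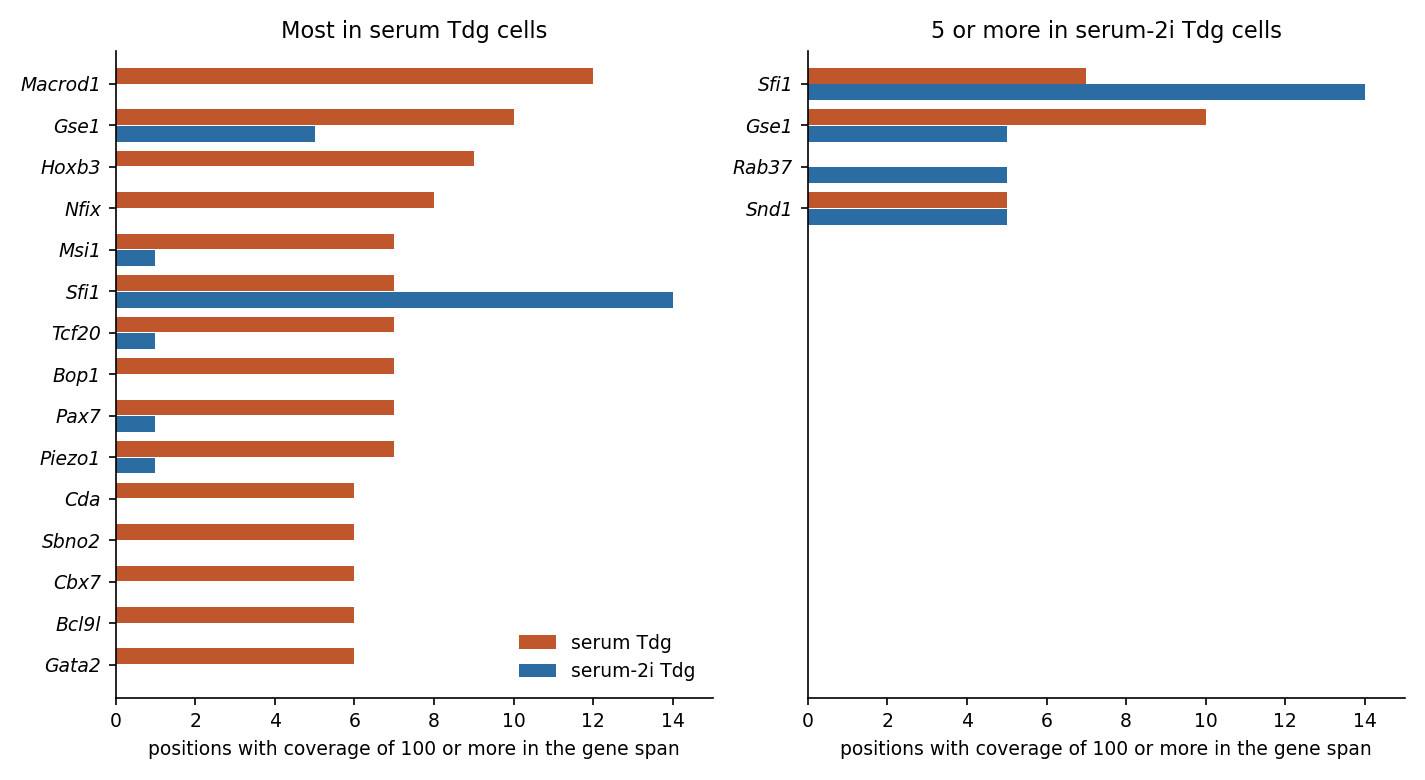
Number of positions with a coverage of 100 or more in serum Tdg (orange) and serum-2i Tdg cells (blue) inside the 15 protein-coding genes with most of them in serum (left) and inside the 4 with 5 or more in serum-2i (right). Macrod1 leads in serum with 12 and 0, and Sfi1 leads in serum-2i with 14 against 7.

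Sfi1 (chr11:3131850-3203347) held 16 of the positions. The 7 of serum were 7.61% of its listed serum positions, and the 14 of serum-2i were 10.7% of its listed serum-2i positions. Wt values there were among the highest at any high-coverage position, with 70.5 at chr11:3146979 and 57.5 at chr11:3182093 in serum wt against 149 and 121 in serum Tdg cells. The one serum-2i wt position above 100 was in Sfi1 too, at chr11:3157838 with 100.5, where serum-2i Tdg cells had 87 and serum Tdg cells 61. Leaving out the Sfi1 span moved none of the 13 main counts and shares beyond their counting interval, or beyond 1.5 times for counts.

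Lineage genes held more serum than serum-2i positions, as did the table as a whole. In a list of 46 regulators that are bivalent in embryonic stem cells, 13 genes held 27 serum positions and 2 of serum-2i, counted in the span and 1 kb on either side. That is 1.00% of the listed serum and 0.202% of the listed serum-2i positions of these genes, beside 0.705% and 0.274% over all autosomal positions, so the serum-2i share was near that of the whole table. Of the 27 serum positions, Pax7 held 7 and Gata2 held 6, out of 179 and 99 listed. Each other gene with a serum position held 1 or 2, so the serum share leans on Pax7 and Gata2. Gata2, a regulator of blood progenitors, held 6 of serum: 134, 108.5, 134, 169.5, 136 and 102, with 18, 68, 38.5, 22 and 52 in serum-2i and the last not listed. Dlx5 and Gata4 held 2 each in serum, and Eomes, a T-box factor of mesoderm, held 1 of 178.5 against 42.5 in serum-2i. Pax3 had 119 in serum and 117 in serum-2i at one position and 138.5 and 37 at another. Pax7 had 123 and 100 at the other position that reached 100 in both media.

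Of 39 Hox genes, the homeobox genes of body-axis patterning, 15 held 29 serum positions and none held one of serum-2i. These were 1.43% of the 2032 listed serum positions, beside 0.705% in the whole table. Only 525 serum-2i positions were listed there, the highest at 84.5 in Hoxc6, and at the share of 0.274% in the whole table so small a number holds hardly any. Hoxb3 held 9, with 215 and 200 the highest, against 42.5 and 31 in serum-2i. Hoxa3 held 6 of 101 to 120, against 12 to 40.5. In the counts per gene, a position in overlapping spans counts for each gene, and Hoxb4 shares the value of 215 with Hoxb3. The total of 29 counts each position once.

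Among 23 Polycomb subunit genes, 4 held 14 serum positions and 2 held 2 of serum-2i. That is 2.15% of their listed serum and 0.273% of their listed serum-2i positions, beside 0.705% and 0.274% in the whole table, so the serum-2i share was close to that of the whole table. Cbx7, a chromodomain subunit of Polycomb repressive complex 1, held 6: 135.5, 116.5, 162.5, 112, 142.5 and 236.5 in serum, with 38.5, 98.5, 62.5, 19.5, 47 and 64.5 in serum-2i. Kdm2b, which recruits a Polycomb complex to unmethylated CGs, held 5 of serum and 1 of serum-2i. Its serum-2i position had 104.5 against 8.5 in serum, while its serum positions had 101 to 121.5 against 18 to 76 in serum-2i. Jarid2 held a serum-2i position of 109. In both genes with a serum-2i position, that position was below 100 in serum.

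The pluripotency genes gave small counts. Of 21 naive genes, 4 held a serum position and 1 a serum-2i position: Klf4 had 132 in serum against 29 in serum-2i, Lifr, the LIF receptor, 122 against 39, Sall4 121 against 90 and Tbx3 102.5 against 15.5. Prdm14, a repressor of DNA methyltransferase genes in naive cells, had 123.5 in serum-2i at a position that serum did not list. For the naive genes these were 0.866% of the listed serum and 0.139% of the listed serum-2i positions, beside 0.705% and 0.274% in the whole table. None of 11 general pluripotency genes, 14 primed genes or the 4 genes Tet1, Tet2, Tet3 and Tdg held a high-coverage position. Among 6 DNA methyltransferase genes and cofactors, Dnmt1 held 1, with 111 in serum and 45.5 in serum-2i. That was 0.420% of the 238 listed serum and 0% of the 322 listed serum-2i positions of this list. The listed positions of the sets without one were few in serum and serum-2i. They were 75 and 77 for the general pluripotency, 233 and 245 for the primed, and 155 and 245 for the Tet and Tdg genes. At the whole-table shares of 0.705% and 0.274%, such numbers hold few high-coverage positions if any, so their absence carries no further reading.

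Of the pathways that the inhibitors of serum-2i act on, 8 of 23 WNT genes held 8 serum and 6 serum-2i positions. Gsk3b, which encodes a target kinase of CHIR99021, held 2 of serum-2i, 108.5 and 110, that serum did not list. Tcf7l1, a repressor of WNT targets, had 177 in serum and 74 in serum-2i at one position and 147.5 and 131.5 at another. Lrp5, a WNT coreceptor, had 151 in serum-2i and 25.5 in serum. Of 25 FGF and ERK genes, 5 held 3 serum and 3 serum-2i positions. Spred2, an inhibitor of ERK signalling, had 103.5 and 106 at a position shared by both media. Shares of listed positions were 0.918% and 0.457% for the WNT list, and 0.447% and 0.308% for the FGF and ERK list, beside 0.705% and 0.274% in the whole table.

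Among 30 imprinted genes, Inpp5f held a serum position, and Meg3 and Airn, non-coding RNAs of imprinted clusters, each held one of serum-2i. The Airn position, which also lay in the coding gene Mas1, had 141 in serum-2i Tdg, 12.5 in serum Tdg and 30 in serum-2i wt cells. Meg3 had 121, 36.5 and 14.5. Of 18 germline genes silenced by methylation, Sycp3 held the 2 serum positions shown in its stretch. Of 13 housekeeping genes, Tbp, the TATA-binding protein, held 1, with 122 in serum-2i and 53 in serum. In serum and serum-2i the shares of listed positions were 0.230% and 0.359% for the imprinted, 1.47% and 0% for the germline, and 0% and 1.22% for the housekeeping genes, beside 0.705% and 0.274% in the whole table. They rest on 1 or 2 positions each. All counts by list are descriptions, since the lists were chosen with results of these data known.

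By chromosome, the share of listed serum positions that reached 100 ran from 0.400% on chr13 to 0.962% on chr15. Chr11 held the most, 316, or 0.927% of its listed positions. In serum-2i the share ran from 0.215% on chr8 to 0.358% on chr6, and chr11 held 178. The chromosome with the highest share thus differed between media, chr15 in one and chr6 in the other. Chr11 came next in both, at 0.927% and 0.348%, and chr13 was among the lowest in both, at 0.400% and 0.220%. No interval was computed for these shares.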

How the data were processed

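5caC was mapped at single CGs in DNA of mouse embryonic stem cells, with 2 technical replicates in each of 5 groups of 10 samples. The authors deposited a coverage signal per CG position and group; per the file headers it has 1 value per group, in steps of 0.5, with no value per replicate and no strand. Per the submitters' processing notes, coordinates refer to mm10. The aligner, the caller and the listing rule were not given in the sources used here. Table positions count from 0: with 1 added, all of the 15148 listed positions that fall in RefSeq promoter windows stood on a CG. Coordinates are printed with 1 added.

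Positions, spans and sequences were joined with Python 3.11.15, pandas 2.3.3, numpy 2.4.6 and scipy 1.17.1, and RefSeq tables of GRCm38.p6. Starts on chromosome 18 were not analysed. Shares carry exact Clopper-Pearson 95% intervals for counting error only; coverage intervals are exact Poisson. Models with replicates could not be fitted, so no p-value was computed. Scripts were tested on simulated data. Named were the 10 positions with the highest coverage per medium, positions around 100, positions listed in all groups by serum wt coverage, the 15 genes and 10 runs with most positions, and list genes with a position; 1 gene that this rule names is not reported here. Further examples (Zfp710, Id3 and others by medium, Mir9-3hg, the printed stretches) were chosen after their values were seen. Members and lists were chosen with earlier results of these data known. Alternatives were coverage minimums of 50 and 200, minimums scaled to each group, X, other distances and spans, and the table without Sfi1.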

Additional observations from a re-analysis of the deposited data

Results flagged for a closer look

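Outside the autosomes, 3 positions on X reached a coverage of 100 in serum Tdg cells, and none did in serum-2i Tdg cells. They are given here as signal on a chromosome that the counts above leave out. They were 3 of 2785 X positions listed in serum, with 5728 listed in serum-2i, while 0.705% of the autosomal positions reached 100 in serum. One lay 22473 bp from Bcorl1 (113.5 in serum, 10 in serum-2i), one 69463 bp from Efnb1 (113.5 and 56.5) and one 3266 bp from Mid1 (104.5 and 47.5). Neither wt group listed any of the 3.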

How the results depend on the processing

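Across 13 counts and shares, 56 alternative values were computed, of which 26 stayed within the counting interval (1.5 times for counts), and 30 moved. At a minimum of 200 the order against positions of lower coverage turned for gene ends in serum and for coding spans in serum-2i. At a coverage minimum of 50 the counts were 20960 in serum, 24957 in serum-2i and 4504 in both, so the order of the media turned; at 200 they were 82, 20 and 2. At the same share of the summed coverage, serum-2i held 98 and both 42. At the same multiple of the median they were 2580 and 326, and with X 2623 in serum. The share inside coding spans was 60.74% at 50, 62.2% at 200 and 74.27% over spans of all annotated genes in serum, and 57.0%, 55.0% and 68.59% in serum-2i. The share near gene ends was 13.41% at 200, 5.878% within 500 bp and 19.47% within 2 kb in serum, and 5.0%, 2.083% and 8.494% in serum-2i. The share listed in wt cells of the same medium was 4.194% at 50, 19.51% at 200 and 2.595% from a wt coverage of 6 in serum, and 24.09%, 40.0% and 34.51% in serum-2i. The share listed in the other Tdg group was 88.59% at 50 and 98.78% at 200 in serum, and 71.04% and 100% in serum-2i. Narrower or wider distances and other minimums count other positions by construction. All 13 stayed the same without the Sfi1 span, an alternative chosen after seeing the data.

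No paired analysis was possible because the table holds 1 value per group and none per replicate. Leaving out each replicate in turn was not run for the same reason. Read depth per library was unknown, so positions that a group does not list were left without a value, and counting intervals leave out the spread between replicates and cultures.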
